A study of Homo sapiens with 12 samples.

Results

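K562 pools carrying a guide against FOXK2 were compared with K562 pools carrying a guide against its paralogue FOXK1. K562 is a human chronic myeloid leukaemia line with erythroid features. The comparison rests on 4 of the 12 RNA sequencing libraries: FOXK2 knockout pools 1 and 2 and FOXK1 knockout pools 1 and 2, both made with CRISPR/Cas9. SCR knockout pools 1 and 2, made with the control guide, entered the same fit as a common baseline. The remaining 6 libraries, 3 parental clones and 3 clones in which the mutant ASXL1 allele was knocked out, entered no comparison and are given only as values. The labels name a mutant ASXL1 allele in this line and record no change of it in the pools. A pool is a mixture of edited and unedited cells whose editing rate the labels do not give, and the cells were not said to be cloned. Genes were tested when at least 2 of the 4 FOXK libraries held 1 FPKM or more (fragments normalised to transcript length and to depth), which kept 13603 of the 58233 listed genes and left 44630 untested.

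FOXK1 and FOXK2 are forkhead transcription factors that share a DNA-binding domain recognising a GTAAACA-type core and are known to bind the ASXL1 and BAP1 deubiquitinase complex. Work in other cells has linked both to genes of autophagy and of sugar metabolism, so that a comparison of one loss with the other asks where the paralogues' effects on transcripts differ. Of the called genes described here, several belong to a pair of response systems. Metallothioneins are small cysteine-rich proteins that bind zinc, copper and cadmium, and the zinc-sensing factor MTF1 drives them through metal response elements in their promoters. CHAC1 breaks down glutathione and is a target of ATF4, the transcription factor of the amino-acid and unfolded-protein stress response.

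The promoters of the 3 protein-coding genes that turned out different and hold such elements are shown because the genes' known regulators read these letters. Each line gives the 250 bases before the RefSeq transcription start (GRCh38.p14, plus strand, 5′ to 3′), at chr16:56608334-56608583 for MT2A, chr16:56682220-56682469 for MT1X and chr15:40953221-40953470 for CHAC1. Capitals mark TGCACNC or TGCGCNC, the metal response element core, in MT2A and MT1X, and TGATGNAA, the C/EBP-ATF response element, in CHAC1, on either strand.
MT2A: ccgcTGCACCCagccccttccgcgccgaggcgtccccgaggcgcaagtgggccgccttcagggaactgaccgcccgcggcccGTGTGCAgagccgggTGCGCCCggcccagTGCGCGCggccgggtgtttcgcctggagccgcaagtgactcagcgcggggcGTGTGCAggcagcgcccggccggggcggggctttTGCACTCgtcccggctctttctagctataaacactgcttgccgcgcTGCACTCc
MT1X: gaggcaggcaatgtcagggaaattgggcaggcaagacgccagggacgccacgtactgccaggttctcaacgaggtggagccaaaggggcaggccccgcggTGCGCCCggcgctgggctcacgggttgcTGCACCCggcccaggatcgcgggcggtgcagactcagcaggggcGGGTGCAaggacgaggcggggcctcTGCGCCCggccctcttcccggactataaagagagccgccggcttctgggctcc
CHAC1: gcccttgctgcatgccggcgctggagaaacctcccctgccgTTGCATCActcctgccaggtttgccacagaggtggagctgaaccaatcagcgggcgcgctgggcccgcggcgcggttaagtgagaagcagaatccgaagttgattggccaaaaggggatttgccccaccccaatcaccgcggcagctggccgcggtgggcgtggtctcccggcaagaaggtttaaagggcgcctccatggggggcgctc

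The MT2A window held 7 metal response element cores and the MT1X window 4. Of 35116 promoter windows of the same length, 24.8% held at least 1 core and 0.37% held 4 or more. The CHAC1 window held 1 C/EBP-ATF response element, which 3.14% of the windows held. The forkhead core GTAAACA, present in 2.98% of the windows, was not among the letters of the MT2A, MT1X, CHAC1 or IL1RAPL1 windows. A match is a description of the letters, not a measured site.

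The targeted genes were read first. FOXK2 (ENSG00000141568, chr17:82519713-82644662) had 25.5 and 27.5 FPKM in FOXK2 pools, 40.0 and 42.6 FPKM in FOXK1 pools, and 42.6 and 40.7 FPKM in SCR pools. Both FOXK2 pools lay below all 4 other pools. The log2 difference, on the scale of log2(FPKM + 1) used throughout, was -0.64 between FOXK2 and SCR pools (limma adjusted p = 0.017) and -0.62 ± 0.07 (SE) between FOXK2 and FOXK1 pools, where it did not pass the threshold of 0.05 (limma adjusted p = 0.147). FOXK1 (ENSG00000164916, chr7:4682309-4771443) had 7.64 and 6.54 FPKM in FOXK2 pools, 5.59 and 6.07 FPKM in FOXK1 pools, and 6.24 and 6.26 FPKM in SCR pools. Both FOXK1 pools lay below the SCR pools by a small margin, and the log2 difference of -0.09 between FOXK1 and SCR pools did not pass (limma adjusted p = 0.683). The authors' deposited table gives FOXK1 a log2 fold change of -0.26 in that comparison, at an adjusted p of 0.0189. A transcript level does not measure the protein left after a frameshift, so it checks these labels only in part.

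Marker genes went with the label K562. All 10 erythroid markers fixed for the line, among them GATA1, KLF1 and the gamma and alpha globins, reached 1 FPKM in each pool. Their summed level was 26718 to 30583 FPKM in FOXK2 pools, 29371 to 30614 FPKM in FOXK1 pools and 17832 to 18796 FPKM in SCR pools. Of 6 lymphoid markers, 2 reached 1 FPKM in every pool and 2, MS4A1 and PAX5, were listed at 0. Their summed level was 21.1 to 27.4 FPKM in FOXK2 pools, 27.3 to 34.5 FPKM in FOXK1 pools and 34.3 to 37.3 FPKM in SCR pools. Of 6 adherent-cell markers, EPCAM alone reached 1 FPKM in every pool, and the sums were 66.9 to 67.7 FPKM in FOXK2 pools, 76.8 to 76.9 FPKM in FOXK1 pools and 68.3 to 69.8 FPKM in SCR pools. The part of these levels in the results was not tested, and in bulk RNA fewer cells of a type and less RNA per cell cannot be told apart.

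The transcriptomes of the FOXK2 and FOXK1 pools lay close together. With limma and Benjamini-Hochberg adjustment over all tested genes, 5 passed the 0.05 threshold, which is 0.0368% of them. CHAC1 was higher in FOXK2 pools (0.00735% called higher), and MT2A, MT1X, IL1RAPL1 and the pseudogene AC022296.2 were lower (0.0294% called lower). IL1RAPL1 and AC022296.2 passed the filter through the FOXK1 pools alone, where they are high, as 102 of the tested genes did, so their direction was fixed by the filter. At an unadjusted p under 0.05 there were 896 genes (6.59%). The median absolute log2 difference between FOXK2 and FOXK1 pools was 0.0887, and 96.1% of genes lay within 0.5. Each knockout differed from the SCR pools at more genes. FOXK2 pools against SCR pools gave 281 called genes (2.07%), 83 higher (0.61%) and 198 lower (1.46%). FOXK1 pools against SCR pools gave 430 called genes (3.16%), 207 higher (1.52%) and 223 lower (1.64%). With median-ratio scaling the 2 comparisons gave 122 higher and 269 lower, and 200 higher and 274 lower, and with upper-quartile scaling 146 higher and 264 lower, and 213 higher and 274 lower. These 2 comparisons share the SCR libraries and are set side by side only. Without SCR pool 1 they gave 12 and 21 calls, and without SCR pool 2 they gave 12 and 19. Without FOXK2 pool 1 or 2 they gave 32 and 227 or 48 and 230 calls, and without FOXK1 pool 1 or 2 they gave 82 and 25 or 86 and 26. Between FOXK2 and FOXK1 pools there were 4 calls without FOXK2 pool 1, of which 2 were among the 5 named above, and 2 calls without FOXK1 pool 2, of which 1 was. Without FOXK2 pool 2 or FOXK1 pool 1 there was 1 call, which was among the 5. Without SCR pool 1 or SCR pool 2 there were 4 calls, of which 3 were.

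The design limits what a missing call can say. With 2 pools a group and 3 residual degrees of freedom, the 95% interval of a gene's log2 difference between FOXK2 and FOXK1 pools had a median reach to either side of 0.268, and of 0.215 for genes averaging 5 FPKM or more. These intervals are per gene and are not adjusted for the number of genes. A log2 difference of 1 or more in either direction, with the 4 libraries not overlapping between groups, was seen at 90 genes, most of them short of the adjusted threshold. Both FOXK2 pools lay above both FOXK1 pools at 2106 genes (15.5%) and below them at 2915 genes (21.4%). With median-ratio scaling the counts were 2506 above and 2563 below, and with upper-quartile scaling 2701 above and 2355 below, so the balance of small differences over all genes depended on the scaling.

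**Figure D1:**
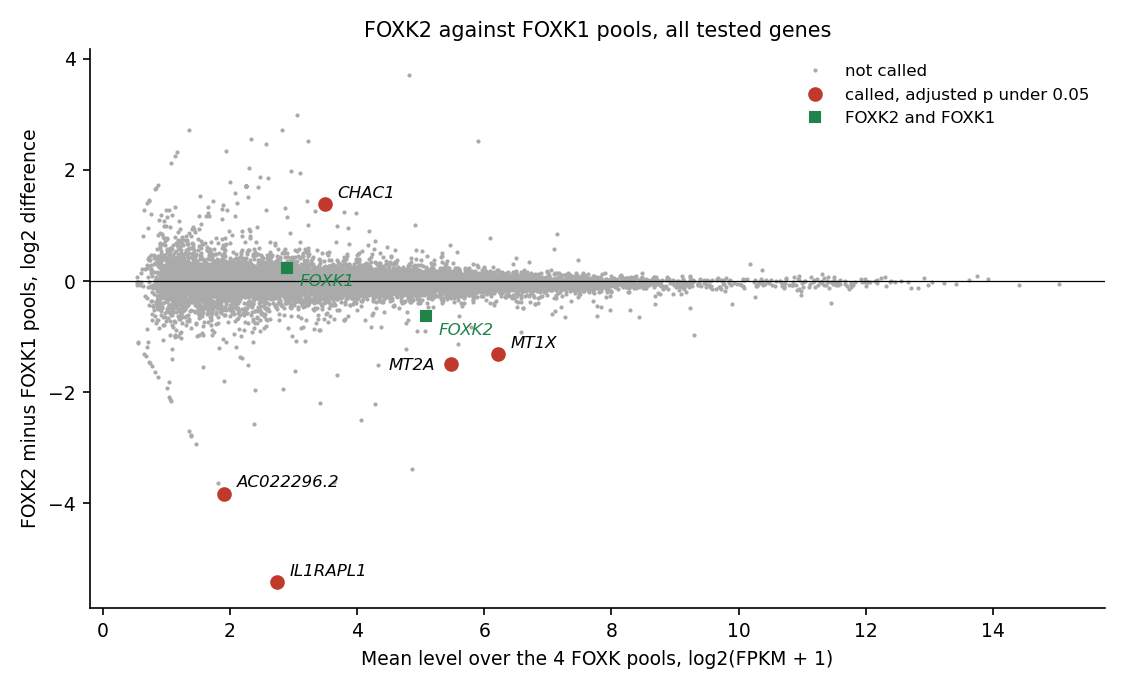
Mean level over the 4 FOXK pools (horizontal axis, log2(FPKM + 1)) against the log2 difference of FOXK2 minus FOXK1 pools (vertical axis) for the 13603 tested genes, 1 point a gene. The 5 called genes are red: CHAC1 lies above 0 at 1.38, and MT2A, MT1X, IL1RAPL1 and AC022296.2 lie below it, while FOXK2 and FOXK1 (green) were not called.

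CHAC1 (ENSG00000128965, chr15:40952962-40956519, plus strand), the glutathione-degrading enzyme, was the only called gene that was higher in FOXK2 pools. It had 17.1 and 17.2 FPKM in FOXK2 pools, 6.26 and 5.7 FPKM in FOXK1 pools, and 20.8 and 22.7 FPKM in SCR pools. FOXK1 pools were the low group, and the 3 groups did not overlap. The log2 difference was 1.38 ± 0.08 (SE, 95% interval 1.18 to 1.58) between FOXK2 and FOXK1 pools (limma adjusted p = 0.0156). In a fit of the 4 FOXK pools alone CHAC1 kept that difference but was not called (limma adjusted p = 0.0747). Against SCR pools CHAC1 differed by -0.32 in FOXK2 pools (limma adjusted p = 0.11) and fell in FOXK1 pools, by 1.70 on the log2 scale (limma adjusted p = 0.00137). The authors' deposited tables give -0.32 for FOXK2 and -1.80 for FOXK1 against the control. The 10 tested genes within 250 kb of CHAC1 had log2 differences of -0.15 to 0.28 between FOXK2 and FOXK1 pools, and 0 of them were called. The value stayed between 1.32 and 1.44 when any single pool was left out, but the call was lost each time: the adjusted p was 0.127 to 0.186 without a FOXK pool and 0.0617 and 0.0635 without SCR pool 1 or 2.

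MT2A (ENSG00000125148, chr16:56608199-56609497) is among the most widely expressed metallothioneins. It had 26.3 and 24.8 FPKM in FOXK2 pools, 72 and 74.5 FPKM in FOXK1 pools, and 6.28 and 7.13 FPKM in SCR pools. The groups did not overlap, and FOXK2 pools lay between the other pools. The log2 difference was -1.48 ± 0.08 (SE; 95% interval -1.68 to -1.29) between FOXK2 and FOXK1 pools (limma adjusted p = 0.0108). MT2A rose in both knockouts against SCR pools, by 1.79 in FOXK2 pools (limma adjusted p = 0.00228) and by 3.27 in FOXK1 pools (limma adjusted p = 0.000189).

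MT1X (ENSG00000187193, chr16:56682424-56684196), a further metallothionein of the same cluster, showed the same order of groups. It had 44.5 and 48.3 FPKM in FOXK2 pools, 121 and 113 FPKM in FOXK1 pools, and 22.6 and 25.8 FPKM in SCR pools. The log2 difference was -1.32 ± 0.08 (SE; 95% interval -1.53 to -1.11) between FOXK2 and FOXK1 pools (limma adjusted p = 0.02). Against SCR pools MT1X rose by 0.91 in FOXK2 pools (limma adjusted p = 0.0114) and by 2.23 in FOXK1 pools (limma adjusted p = 0.000856). Leaving out any single FOXK pool ended both metallothionein calls without moving the values far: MT2A then lay at -1.53 to -1.44 with adjusted p of 0.105 to 0.186, and MT1X at -1.37 to -1.26 with adjusted p of 0.127 to 0.267. MT1X also missed the threshold without SCR pool 1 (adjusted p = 0.0515) or SCR pool 2 (adjusted p = 0.0519).

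**Figure D2:**
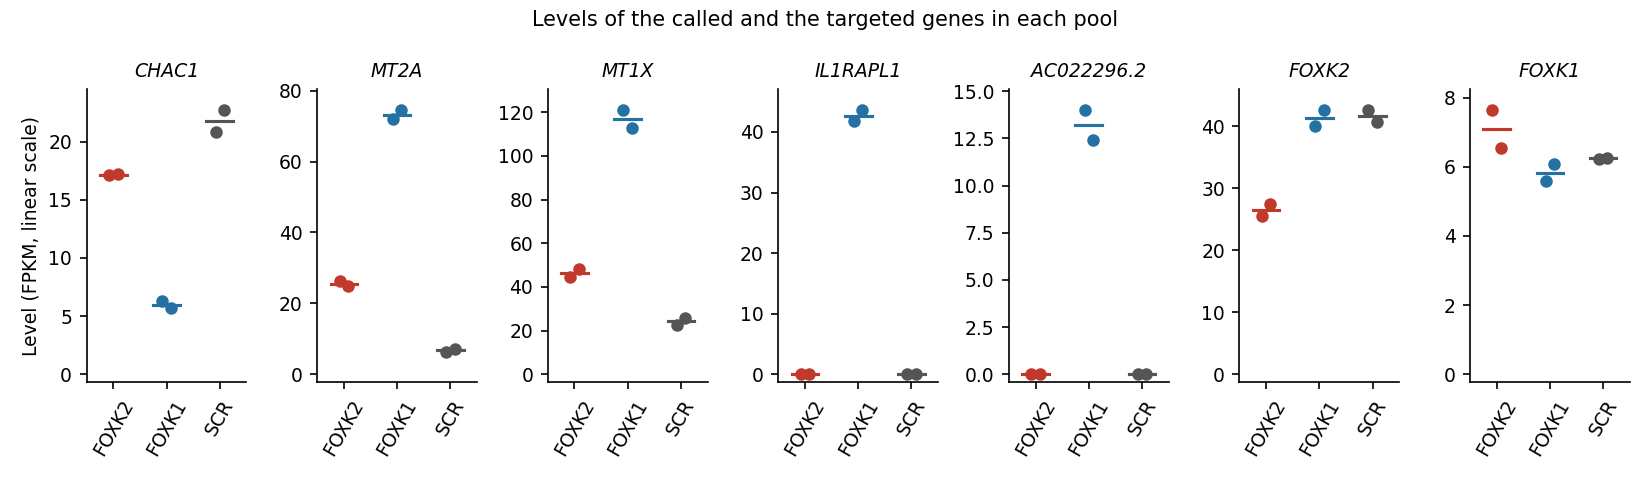
Levels in FPKM (vertical axes, linear, 1 scale per gene) of the 5 called genes and of FOXK2 and FOXK1 in FOXK2, FOXK1 and SCR pools; points are single pools and lines group means. CHAC1 is low in FOXK1 pools (6.26 and 5.7 FPKM), the metallothioneins MT2A and MT1X are highest there, and IL1RAPL1 and AC022296.2 are at or near 0 outside them.

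The metallothionein cluster on chromosome 16 has 12 genes in the tables, of which 5 were tested. Their summed level was 82.7 and 85.2 FPKM in FOXK2 pools, 234 and 223 FPKM in FOXK1 pools, and 29.4 and 33.6 FPKM in SCR pools. MT1G had 10.1 and 11.9 FPKM in FOXK2 pools, 36.4 and 29.8 FPKM in FOXK1 pools, and 0 and 0.402 FPKM in SCR pools. Its groups did not overlap, but the log2 difference of -1.51 ± 0.20 (SE) between FOXK2 and FOXK1 pools did not pass (limma adjusted p = 0.229), while MT1G rose against SCR pools in FOXK2 pools (limma adjusted p = 0.00459) and in FOXK1 pools (limma adjusted p = 0.000924). MT1H was listed at 0.19 and 0 FPKM in FOXK2 pools, 2.51 and 3.23 FPKM in FOXK1 pools, and 0 in both SCR pools (FOXK2 against FOXK1, limma adjusted p = 0.153). MT1A was at 1.11 and 0 FPKM in FOXK2 pools, 0.46 and 1.19 FPKM in FOXK1 pools, and 0 in both SCR pools. The other 7 genes of the cluster, MT1E and MT1F among them, did not reach the filter. The genes are near-identical copies, so the share of each in the cluster's reads is uncertain. The 5 tested genes within 250 kb of MT2A that are not metallothioneins differed by -0.07 to 0.05 on the log2 scale, and the 5 of MT1X by -0.04 to 0.07.

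The zinc genes outside the cluster moved less. Of the 14 tested members of the metallothionein and zinc list, which also holds zinc transporters and MTF1, MT2A and MT1X were called lower in FOXK2 than FOXK1 pools and 0 were called higher. Both FOXK2 pools lay below both FOXK1 pools at 9 of the 14 members (64.3%, against 21.4% of all tested genes) and above them at 1. MT1H is among the 9 and passed the filter through the FOXK1 pools alone, so its place was fixed by the filter. The list's median log2 difference was -0.20, against -0.02 over all tested genes. SLC30A1, the zinc exporter of the plasma membrane and itself an MTF1 target, had 10.9 and 11.3 FPKM in FOXK2 pools, 14.3 and 13.2 FPKM in FOXK1 pools, and 9 and 9.23 FPKM in SCR pools. That difference of -0.28 did not pass (limma adjusted p = 0.724), whereas SLC30A1 rose in FOXK1 pools against SCR pools by 0.54 (limma adjusted p = 0.0334). MTF1 had 3.31 and 4.09 FPKM in FOXK2 pools, 3.81 and 2.83 FPKM in FOXK1 pools, and 2.71 and 2.88 FPKM in SCR pools, so the FOXK2 and FOXK1 pools overlapped. SLC39A6, a zinc importer, was the member with both FOXK2 pools above, at 12.6 and 11.6 FPKM in FOXK2 pools and 10.6 and 9.66 FPKM in FOXK1 pools. Against SCR pools the list had 3 called rises and 0 falls in FOXK2 pools (background 0.61% higher) and 5 rises and 0 falls in FOXK1 pools (background 1.52% higher).

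**Figure D3:**
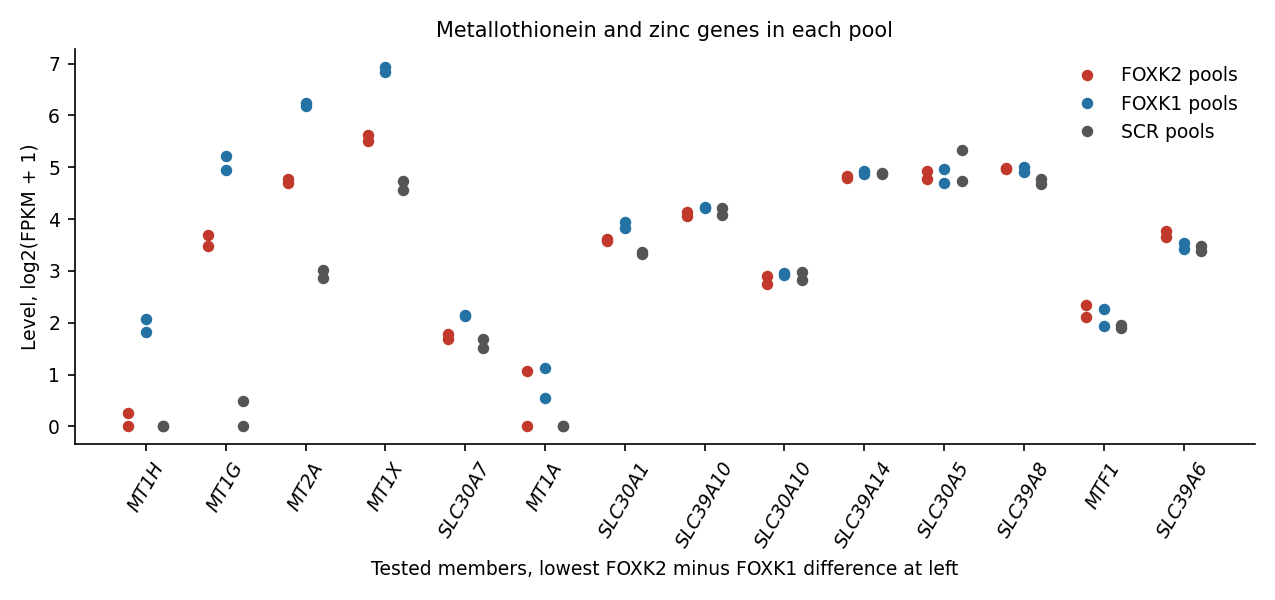
Levels (vertical axis, log2(FPKM + 1)) of the 14 tested metallothionein and zinc genes (horizontal axis) in FOXK2, FOXK1 and SCR pools, 2 points a group. MT2A, MT1X and MT1G stand in the order FOXK1, FOXK2, SCR from high to low with no overlap, while the transporters SLC39A8 and SLC30A5 and the factor MTF1 overlap between FOXK2 and FOXK1 pools.

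IL1RAPL1 (ENSG00000169306, chrX:28587399-29956723) encodes a synaptic membrane protein of the interleukin 1 receptor family. It was listed at 0.04 and 0 FPKM in FOXK2 pools, 41.8 and 43.6 FPKM in FOXK1 pools, and 0 in both SCR pools (FOXK2 against FOXK1, limma adjusted p = 0.00023). Outside the FOXK1 pools it reached 11.1 FPKM in parental clone 1, and 0.01 to 0.163 FPKM in the other 5 clones. No other tested gene lay within 250 kb of it. The authors' deposited tables list IL1RAPL1 with a log2 fold change of 0 and an adjusted p of 1 in both comparisons with the control, which its FPKM values do not match. An entry of this kind, in either comparison or in both, was given to 991 of the tested genes (7.29%). Their median level was 1.42 FPKM against 14.2 FPKM for the others, and 19 of them had more than 20 FPKM. The longest transcript had a median of 601 bases in these genes and of 3307 bases in the others. That of IL1RAPL1 has 3667 bases. The level of IL1RAPL1 therefore rests on the FPKM column alone. IL1RAPL1 passed the filter through the FOXK1 pools alone, so the direction of its difference was fixed by the filter. The log2 difference lay at -5.45 to -5.39 when any of the 6 pools was left out. With all 12 libraries in the fit it was not called (limma adjusted p = 0.321).

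AC022296.2, named because its values were seen, is a processed pseudogene of 202 bases at chr3:133546071-133546272. It was listed at 0 in both FOXK2 pools, at 14 and 12.4 FPKM in FOXK1 pools, and at 0 in both SCR pools and all 6 clones (FOXK2 against FOXK1, limma adjusted p = 0.003). It too passed the filter through the FOXK1 pools alone, so its direction was fixed by the filter. The authors' deposited tables give it a log2 fold change of 0 in both comparisons as well. FPKM divides by length, so that few fragments make a large value in a short transcript: the smallest value above 0 had a median of 1.9 FPKM for transcripts under 300 bases and 0.23 FPKM for those over 3000 bases. The 5 tested genes within 250 kb of AC022296.2 differed by -0.14 to 0.46 on the log2 scale. The AC022296.2 call was lost without FOXK1 pool 1 (adjusted p = 0.154), FOXK1 pool 2 (adjusted p = 0.0823) or FOXK2 pool 2 (adjusted p = 0.061).

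Around CHAC1, several stress response genes fell in both knockouts against SCR pools, and their differences between the knockouts were small beside that. The list holds ATF4, its partner and feedback genes and their hormone-like targets, with 19 tested members. CHAC1 was the only member called in FOXK2 against FOXK1 pools. Both FOXK2 pools lay above both FOXK1 pools at 7 of the 19 members (36.8%, against 15.5% of all tested genes) and below them at 1. The counts were 8 and 1 under both other scalings. Over all 13603 tested genes, median-ratio scaling gave 2506 above and 2563 below, and upper-quartile scaling 2701 above and 2355 below. The list's median log2 difference was 0.04. Against SCR pools 4 members were called lower in FOXK2 pools (background 1.46% lower) and 6 in FOXK1 pools (background 1.64% lower), with 0 called higher in either.

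ATF5, a transcription factor of the mitochondrial and amino-acid stress response, had 30.5 and 32.4 FPKM in FOXK2 pools, 24.1 and 25.4 FPKM in FOXK1 pools, and 115 FPKM in both SCR pools. It fell in both knockouts, by 1.84 in FOXK2 pools (limma adjusted p = 0.00159) and by 2.17 in FOXK1 pools (limma adjusted p = 0.000242). The FOXK2 pools lay above the FOXK1 pools by 0.33 (95% interval 0.19 to 0.48), which did not pass (limma adjusted p = 0.486). STC2, a secreted stanniocalcin induced by stress, had 6.48 and 5.08 FPKM in FOXK2 pools, 3.37 and 3.53 FPKM in FOXK1 pools, and 9.32 and 9.1 FPKM in SCR pools. Its log2 difference of 0.60 ± 0.12 (SE) between FOXK2 and FOXK1 pools did not pass (limma adjusted p = 0.575). The remaining members lay nearer 0.

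TRIB3, a pseudokinase that feeds back on ATF4, had 34.3 and 34.6 FPKM in FOXK2 pools, 32.6 and 32.5 FPKM in FOXK1 pools, and 67.9 and 73.2 FPKM in SCR pools. It fell in both knockouts against SCR pools, while FOXK2 minus FOXK1 was 0.08 (95% interval -0.07 to 0.22). ATF4 itself had 402 and 417 FPKM in FOXK2 pools, 391 and 404 FPKM in FOXK1 pools, and 479.6 and 447 FPKM in SCR pools. Its FOXK2 and FOXK1 pools overlapped, with a difference of 0.04 (95% interval -0.09 to 0.17). DDIT3, which encodes the stress factor CHOP, had 52.1 and 58.4 FPKM in FOXK2 pools, 43.8 and 50 FPKM in FOXK1 pools, and 50.7 and 46.7 FPKM in SCR pools, and passed in none of the 3 comparisons.

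DDIT4 and SESN2 encode brakes on mTORC1, the growth kinase complex, and are also stress targets. Their list of mTORC1 brakes and nutrient sensors did not share 1 direction between FOXK2 and FOXK1 pools. Of its 14 tested members, 0 were called. FOXK2 pools lay above without overlap at 2 (14.3%, against 15.5% of all tested genes) and below at 4 (28.6%, against 21.4%). These were 3 and 3 under both other scalings. The median log2 difference was -0.06 and the range -0.89 to 0.84. DDIT4 had 173 and 205 FPKM in FOXK2 pools, 100.1 and 110.0 FPKM in FOXK1 pools, and 231 and 230.4 FPKM in SCR pools. The 3 groups did not overlap, in the same order as for CHAC1. The log2 difference of 0.84 ± 0.09 (SE, 95% interval 0.61 to 1.07) between FOXK2 and FOXK1 pools missed the threshold (limma adjusted p = 0.147). DDIT4 fell in FOXK1 pools against SCR pools, by 1.13 (limma adjusted p = 0.00883), and was at -0.29 in FOXK2 pools (limma adjusted p = 0.157). By the authors' own test DDIT4 was also lower in FOXK2 pools, by -0.36 at an adjusted p of 1.27e-05. SESN2 had 8.68 and 9.73 FPKM in FOXK2 pools, 6.93 and 7.11 FPKM in FOXK1 pools, and 15.2 and 14.6 FPKM in SCR pools. SESN2 fell in both knockouts against SCR pools, and the 0.35 between FOXK2 and FOXK1 pools did not pass (limma adjusted p = 0.669).

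Several enzymes that make serine, asparagine and arginine fell in both knockouts against SCR pools, and 0 of them were called between FOXK2 and FOXK1 pools. In the list of serine synthesis and one-carbon enzymes, 5 of 19 tested members were called lower against SCR pools in FOXK2 pools (background 1.46% lower) and 5 in FOXK1 pools (background 1.64% lower), with 0 higher. PHGDH, the first enzyme of serine synthesis, had 36.2 and 35.8 FPKM in FOXK2 pools, 29.3 and 33.1 FPKM in FOXK1 pools, and 155 and 147 FPKM in SCR pools. It fell by 2.04 in FOXK2 pools (limma adjusted p = 0.00159) and by 2.24 in FOXK1 pools (limma adjusted p = 0.000485). The FOXK2 pools lay above the FOXK1 pools by 0.20 (95% interval 0.02 to 0.38), which did not pass (limma adjusted p = 0.746). PSAT1, the next enzyme, differed by 0.06 between FOXK2 and FOXK1 pools (95% interval -0.07 to 0.19). GCSH, a carrier protein of glycine cleavage, had 53.1 and 59.2 FPKM in FOXK2 pools, 68.1 and 68.2 FPKM in FOXK1 pools, and 53.4 and 61.4 FPKM in SCR pools, a FOXK2 minus FOXK1 difference of -0.28 that did not pass (limma adjusted p = 0.742). Between FOXK2 and FOXK1 pools the list had 0 limma calls, 4 members at an unadjusted p under 0.05 (6.59% of all tested genes), and 5 members without overlap in each direction (26.3% each, against 15.5% above and 21.4% below over all tested genes).

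ASNS, asparagine synthetase, had 87.5 and 89.6 FPKM in FOXK2 pools, 85.7 and 83 FPKM in FOXK1 pools, and 202 and 204 FPKM in SCR pools. It was below SCR pools by 1.19 in FOXK2 pools and 1.26 in FOXK1 pools (log2, called in both), and the knockouts differed by 0.07 (95% interval -0.04 to 0.18). ASS1, which joins citrulline and aspartate on the way to arginine, had 3.88 and 5.63 FPKM in FOXK2 pools, 3.17 and 4.28 FPKM in FOXK1 pools, and 32.7 and 32.2 FPKM in SCR pools. It fell in both knockouts against SCR pools, by 2.56 in FOXK2 pools (limma adjusted p = 0.00678) and by 2.83 in FOXK1 pools (limma adjusted p = 0.00465), and the FOXK2 and FOXK1 pools overlapped. ARG2, the mitochondrial arginase, had 8.86 and 9.02 FPKM in FOXK2 pools, 11 and 11.7 FPKM in FOXK1 pools, and 20.3 and 16.9 FPKM in SCR pools. Both knockouts lay below SCR pools here too, but FOXK2 pools were the lower. The difference of -0.32 between FOXK2 and FOXK1 pools did not pass (limma adjusted p = 0.742).

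**Figure D4:**
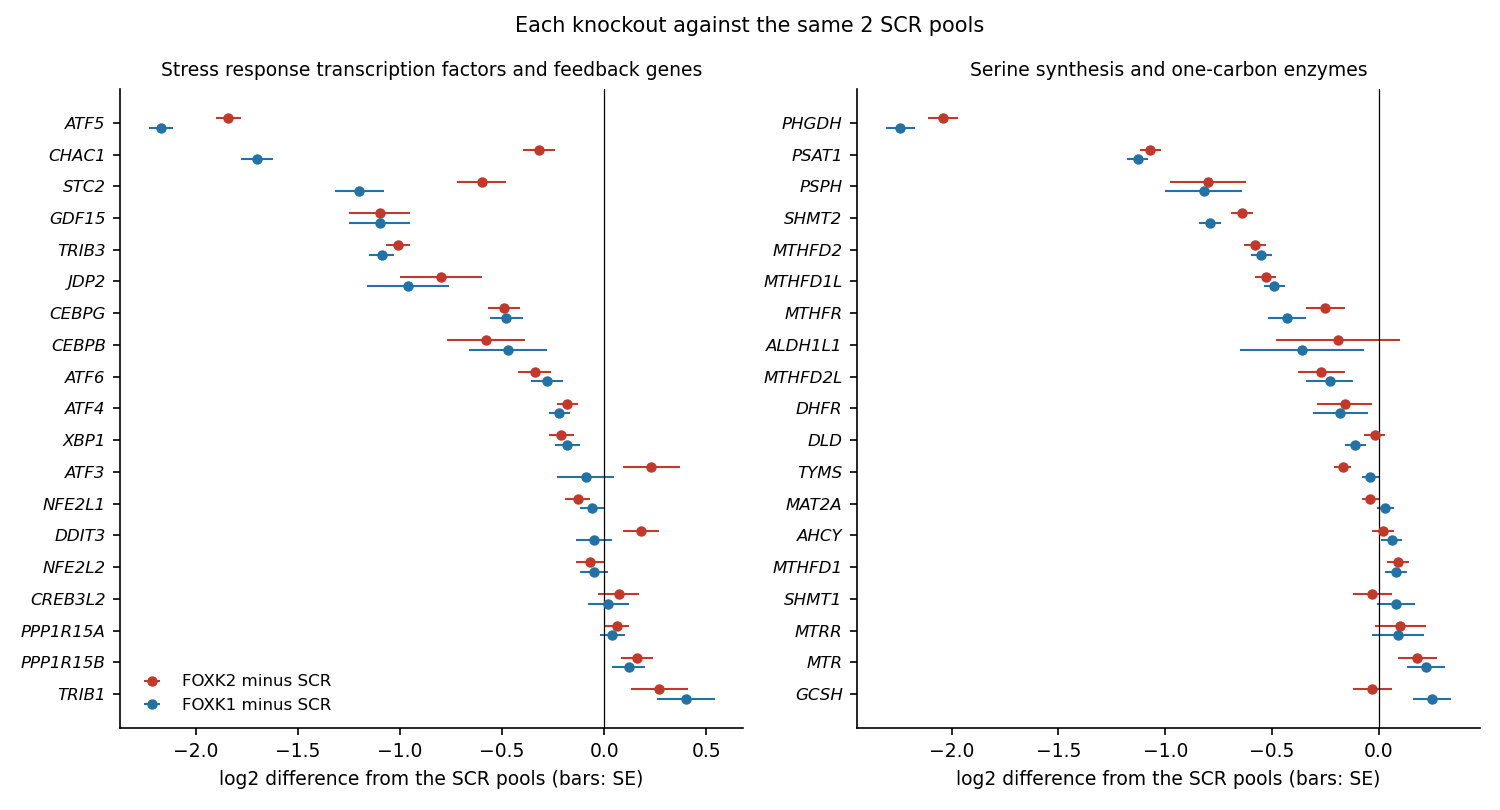
Log2 differences from the SCR pools (horizontal axes, bars SE) for each tested member of the stress response list (left) and of the serine and one-carbon list (right), FOXK2 minus SCR in red above FOXK1 minus SCR in blue. CHAC1 stands out at -0.32 in FOXK2 pools and -1.70 in FOXK1 pools, while PHGDH, PSAT1 and TRIB3 fell in both; the 2 differences of a gene share the SCR pools.

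Amino-acid transporters had the largest share of members with both FOXK2 pools above both FOXK1 pools among the lists drawn. This was 7 of 18 (38.9%, against 15.5% of all tested genes), with 1 below. The counts were 8 and 1 with median-ratio scaling and 9 and 0 with upper-quartile scaling. Over all 13603 tested genes the former gave 2506 above and 2563 below, and the latter 2701 above and 2355 below. The sizes were small, with a median log2 difference of 0.08 and 0 called by limma. Of the 18 members, 3 had an unadjusted p under 0.05 (6.59% of all tested genes). SLC7A5, the importer of large neutral amino acids, had 79.8 and 82.8 FPKM in FOXK2 pools, 69.4 and 75.5 FPKM in FOXK1 pools, and 107 and 113 FPKM in SCR pools. SLC38A9, the arginine sensor of the lysosome, had 17.9 and 13.7 FPKM in FOXK2 pools, 10.6 and 11.9 FPKM in FOXK1 pools, and 12 and 15.5 FPKM in SCR pools. The cytosolic tRNA synthetases, which load amino acids onto tRNA, had 0 limma calls between FOXK2 and FOXK1 pools and a median of -0.04. Of their 20 tested members, 1 had an unadjusted p under 0.05 (6.59% of all tested genes). WARS, the tryptophan enzyme, had 189 and 189.7 FPKM in FOXK2 pools, 178 FPKM in both FOXK1 pools, and 341 and 354 FPKM in SCR pools.

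Glycolysis and hypoxia genes lay lower in FOXK2 than in FOXK1 pools at more members than genes at large, with 0 limma calls. An unadjusted p under 0.05 was seen at 5 of 32 glycolysis and 7 of 22 hypoxia genes (6.59% of all tested genes). In the glycolysis list both FOXK2 pools lay below both FOXK1 pools at 13 of 32 members (40.6%, against 21.4% of all tested genes) and above at 1. These were 11 and 1 with median-ratio scaling and 10 and 2 with upper-quartile scaling. Over all 13603 tested genes the former gave 2563 below and 2506 above, and the latter 2355 below and 2701 above. The median log2 difference was -0.05. Of 9 pentose phosphate enzymes, the side branch of glucose use, 1 lay below (11.1%, against 21.4%) and 2 above (22.2%, against 15.5%). With 9 members these counts are too few to set against those of glycolysis. ENO2, the enolase of neurons and of hypoxic cells, had 6.22 and 5.6 FPKM in FOXK2 pools, 10.6 and 9.35 FPKM in FOXK1 pools, and 5.05 and 4.98 FPKM in SCR pools. The difference of -0.67 ± 0.10 (SE) between FOXK2 and FOXK1 pools did not pass (limma adjusted p = 0.359), and ENO2 rose in FOXK1 pools against SCR pools, by 0.87 (limma adjusted p = 0.0189). PGK1, phosphoglycerate kinase, had 207 FPKM in both FOXK2 pools, 235 and 240.1 FPKM in FOXK1 pools, and 193 and 190.4 FPKM in SCR pools. LDHA, lactate dehydrogenase, had 759 and 764 FPKM in FOXK2 pools, 822 and 853 FPKM in FOXK1 pools, and 659.7 and 691 FPKM in SCR pools. Both genes rose in FOXK1 pools against SCR pools (limma adjusted p = 0.0242 for PGK1 and 0.0341 for LDHA). In FOXK2 pools they were at 0.11 (limma adjusted p = 0.199) and 0.17 (limma adjusted p = 0.116). By the authors' own test both were higher in FOXK2 pools too, at adjusted p of 0.00435 for PGK1 and 0.00345 for LDHA.

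Of 22 tested hypoxia genes, 9 had both FOXK2 pools below both FOXK1 pools (40.9%, against 21.4% of all tested genes) and 2 above (9.09%, against 15.5%), with a median log2 difference of -0.10. Of the 22 members, 1 passed the filter through the FOXK1 pools alone. It is among the 9, and its place there was fixed by the filter. BHLHE40, a hypoxia-induced repressor, had 22.5 and 23.1 FPKM in FOXK2 pools, 29.5 and 29.9 FPKM in FOXK1 pools, and 31 and 29.8 FPKM in SCR pools. It fell in FOXK2 pools against SCR pools, by 0.40 (limma adjusted p = 0.0367), and the -0.37 against FOXK1 pools did not pass (limma adjusted p = 0.359). P4HA1, a collagen prolyl hydroxylase subunit, had 10.9 and 10.8 FPKM in FOXK2 pools, 14.6 and 14.1 FPKM in FOXK1 pools, and 11.2 and 11.1 FPKM in SCR pools. EGLN3, an oxygen-sensing prolyl hydroxylase, had 24 and 21 FPKM in FOXK2 pools, 27.7 and 31.6 FPKM in FOXK1 pools, and 17 and 15.3 FPKM in SCR pools, and rose in FOXK1 pools against SCR pools (limma adjusted p = 0.0234). For P4HA1 and EGLN3 the FOXK1 pools were the high group. Against SCR pools the hypoxia list had 0 called rises and 4 falls in FOXK2 pools (background 0.61% higher and 1.46% lower). In FOXK1 pools it had 1 rise and 1 fall (background 1.52% higher and 1.64% lower).

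Calcium-binding S100 proteins and annexins lay in the same direction, with 7 of 16 members below (43.8%, against 21.4% of all tested genes). There was 1 above (6.25%, against 15.5%), and the median was -0.09. Limma called 0, and 2 had an unadjusted p under 0.05 (6.59% of all tested genes). S100A4 had 85.6 and 80.7 FPKM in FOXK2 pools, 108 FPKM in both FOXK1 pools, and 74.7 and 75.2 FPKM in SCR pools. The difference of -0.38 ± 0.05 (SE) between FOXK2 and FOXK1 pools did not pass (limma adjusted p = 0.229), and S100A4 rose in FOXK1 pools against SCR pools, by 0.52 (limma adjusted p = 0.0107). S100A1 had 43.7 and 44.2 FPKM in FOXK2 pools, 56.8 and 59 FPKM in FOXK1 pools, and 50.8 and 52.3 FPKM in SCR pools, so that the SCR pools lay between the knockouts. EGR1, an immediate early transcription factor, had 124 and 129.6 FPKM in FOXK2 pools, 155 and 147 FPKM in FOXK1 pools, and 152 and 151 FPKM in SCR pools, with FOXK2 pools the low group.

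**Figure D5:**
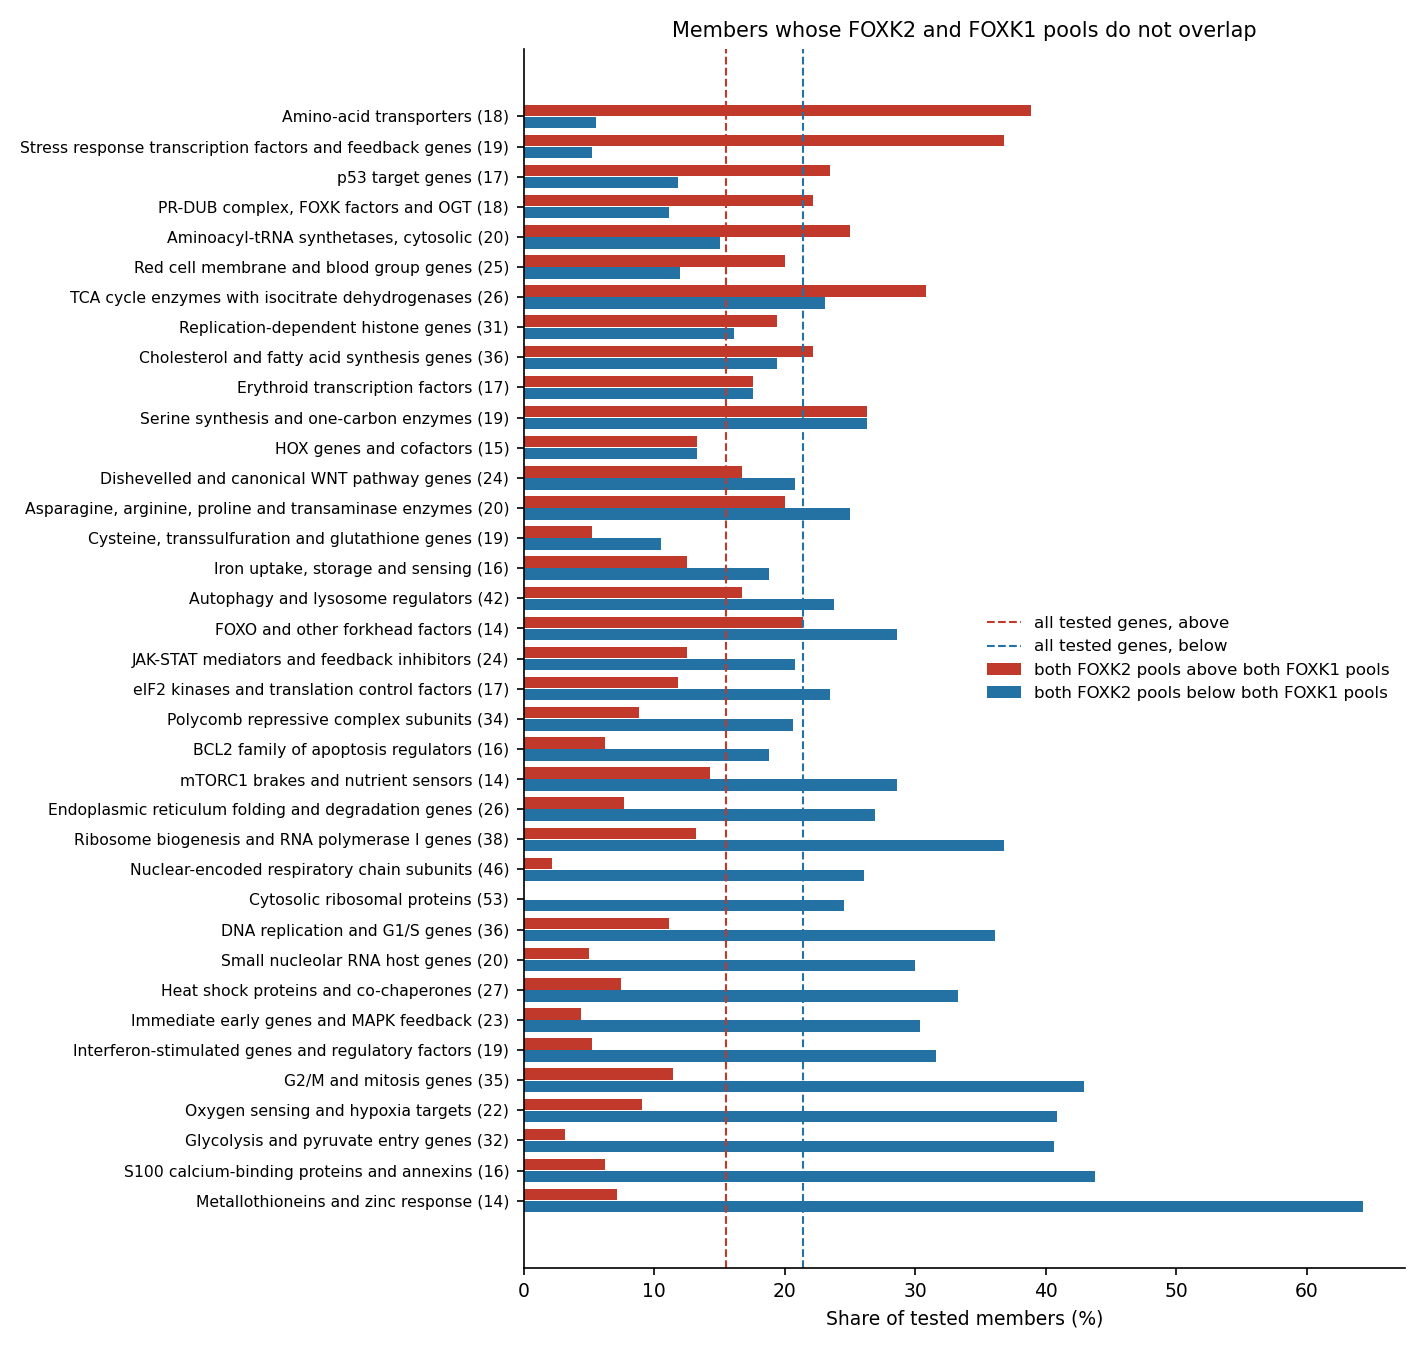
Share of each list's tested members (horizontal axis, %) with both FOXK2 pools above (red) or below (blue) both FOXK1 pools, for lists of 14 or more tested members (number in parentheses); dashed lines give 15.5% and 21.4%, the same shares over all tested genes. Metallothioneins and zinc genes have 64.3% below, and amino-acid transporters have 38.9% above; the shares shift with the scaling.

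Erythroid genes showed no called difference between the knockouts. In the globin list 2 of 10 tested genes were called higher against SCR pools in FOXK2 pools (background 0.61% higher). In FOXK1 pools 6 were (background 1.52% higher). Limma called 0 between FOXK2 and FOXK1 pools, and 1 had an unadjusted p under 0.05 (6.59% of all tested genes). HBG2, a fetal globin nearly identical to HBG1 so that its share of the reads is uncertain, had 20063 and 22464 FPKM in FOXK2 pools, 21925 and 22839.8 FPKM in FOXK1 pools, and 13499.9 and 12742 FPKM in SCR pools. HBE1, the embryonic beta-like globin, had 158 and 159 FPKM in FOXK2 pools, 172 and 173 FPKM in FOXK1 pools, and 126 and 134 FPKM in SCR pools. KEL, a blood group protein of the red cell membrane, had 63.3 and 60.6 FPKM in FOXK2 pools, 51.1 and 49.2 FPKM in FOXK1 pools, and 55.2 and 53.6 FPKM in SCR pools; its difference of 0.30 (95% interval 0.17 to 0.43) did not pass (limma adjusted p = 0.514). SLC4A1, the band 3 anion exchanger, had 8.75 and 8.99 FPKM in FOXK2 pools, 5.84 and 5.49 FPKM in FOXK1 pools, and 6.25 and 7.96 FPKM in SCR pools.

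Partners of the targeted factors were also close. Of 18 tested genes of the ASXL1 and BAP1 complex, its FOXK and OGT partners included, 0 were called by limma between FOXK2 and FOXK1 pools. Of the 18, 2 had an unadjusted p under 0.05 (6.59% of all tested genes), and FOXK2 itself had the lowest adjusted p. MBD6, a subunit that binds the same complex, had 23.5 and 23.7 FPKM in FOXK2 pools, 18.7 and 19.2 FPKM in FOXK1 pools, and 23.3 and 23.1 FPKM in SCR pools. The FOXK1 pools were low, and the difference of 0.30 ± 0.06 (SE) did not pass (limma adjusted p = 0.534). Of 42 tested autophagy and lysosome regulators, genes that FOXK factors are known to repress in other cells, 0 were called between FOXK2 and FOXK1 pools. Of the 42, 3 had an unadjusted p under 0.05, near the 6.59% of all tested genes. The list's median log2 difference was -0.02 and its range -0.29 to 0.31. In the same list 0 genes were called in FOXK2 pools against SCR pools, and 1 was called lower in FOXK1 pools. RPL22, a ribosomal protein of the large subunit, had 1838 and 1876 FPKM in FOXK2 pools, 2189.6 and 2241 FPKM in FOXK1 pools, and 2289 and 2171 FPKM in SCR pools, a difference of -0.25 between FOXK2 and FOXK1 pools (limma adjusted p = 0.514).

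Cell division, chaperone and histone genes were set out for the same contrast, and 49 lists were counted in all; CHAC1, MT2A and MT1X were the called genes that any of them held. Of 35 tested G2/M and mitosis genes, both FOXK2 pools lay below both FOXK1 pools at 15 (42.9%, against 21.4% of all tested genes) and above at 4 (11.4%, against 15.5%). With median-ratio scaling 12 lay below, beside 2563 of all 13603 tested genes, and with upper-quartile scaling 10, beside 2355. Of 27 heat shock genes and co-chaperones, 9 lay below (33.3%, against 21.4%) and 2 above (7.41%, against 15.5%). The scalings turned this to 4 below and 4 above, and to 3 below and 5 above. Over all tested genes, 2506 lay above with median-ratio scaling and 2701 with upper-quartile scaling. HSPE1, the mitochondrial co-chaperonin, had 528 and 549 FPKM in FOXK2 pools, 616 and 618 FPKM in FOXK1 pools, and 471 and 459.6 FPKM in SCR pools. HSPE1 rose in FOXK1 pools against SCR pools, by 0.41 (limma adjusted p = 0.014), and was at 0.21 in FOXK2 pools (limma adjusted p = 0.0758). By the authors' own test HSPE1 was higher in FOXK2 pools too, at an adjusted p of 0.00963. Of 31 tested replication-dependent histone genes, which share near-identical copies and lack the usual poly(A) tail, 6 were called higher in FOXK2 pools (background 0.61% higher) and 7 in FOXK1 pools (background 1.52% higher) against SCR pools. Between FOXK2 and FOXK1 pools 6 histone genes lay above (19.4%) and 5 below (16.1%), near the 15.5% and 21.4% of all tested genes, with a median of 0.01. EPCAM, the epithelial adhesion molecule, had 66.2 and 65.5 FPKM in FOXK2 pools, 75.5 and 74.9 FPKM in FOXK1 pools, and 68 and 66.7 FPKM in SCR pools. Its difference of -0.19 between FOXK2 and FOXK1 pools did not pass (limma adjusted p = 0.663).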

How the data were processed

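Per the labels, total RNA was made into libraries with a TruSeq kit and sequenced as paired reads. The authors deposited FPKM per gene for each library, and log2 fold changes, linear fold ratios and p-values for each knockout against SCR, per the file headers. Per the submitters' processing notes the build was GRCh38.p10 and the tools included TopHat, Bowtie, RSEM, edgeR and Cufflinks, with no version or role. In the 6 pools 96.4% to 100% of the low values were, within 0.0006 FPKM, whole multiples of 1 step per library; the steps times 100 gave factors of 0.9502 to 1.0364 over the 12 libraries with a product of 0.9999. The step is the same for short and long genes, so it is not the value of a read: no reads were recovered, the depth is unknown, and the count test planned with edgeR was not run. Levels were taken as deposited, 1 FPKM was added, and limma 3.58.1 in R 4.3.3 fitted log2 values of the 6 pools together (variance trend, two-sided, Benjamini-Hochberg over the 13603 tested genes). The procedure was tested on simulated data. The SCR values were identical in both tables. The labels do not say that pools of a group are separate cultures, so p-values reflect library spread only, which may be technical. Pools of equal number were not treated as pairs, since nothing in the labels ties them; deviations of equally numbered pools correlated at 0.054, -0.048 and -0.15. Members and the 49 gene lists were chosen with earlier results of these data known. Named genes are FOXK1 and FOXK2, called genes of 5 FPKM or more without clone-based names, and up to 4 list members with the smallest adjusted p, with some of these left out for length; further members were chosen for their role after their values were seen. Positions came from GENCODE 29 and promoters from RefSeq, prepared with Python 3.11.15, pandas 2.3.3, numpy 2.4.6 and matplotlib 3.10.9.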

Additional observations from a re-analysis of the deposited data

Results flagged for a closer look

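The 6 clones entered no comparison, yet 4 of the 5 called genes reached levels there above the SCR pools; AC022296.2 was listed at 0 in all 6. CHAC1 had 29.8, 53.2 and 84.3 FPKM in parental clones 1 to 3 and 50.3 to 53.9 FPKM in mutant ASXL1 knockout clones. MT2A had 12.1, 25.2 and 36.3 FPKM in parental clones and 10.5 to 13.1 FPKM in mutant ASXL1 knockout clones. MT1X had 31.3, 45.7 and 56 FPKM in parental clones. In mutant ASXL1 knockout clones MT1X had 17.9 to 19.9 FPKM, below both SCR pools. The parental clones thus spread widely at each of these genes, and for MT2A and MT1X their range held both FOXK2 pools. IL1RAPL1 reached 11.1 FPKM in parental clone 1, against 0 in both SCR pools. These values come from libraries outside the comparison, and clones and pools were not tested against each other.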

How the results depend on the processing

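Between FOXK2 and FOXK1 pools the number of called genes (5) became 3 with no filter on low FPKM, 2 with the replicate number as a block, 14 without the variance trend, and 1 to 4 when 1 pool was left out. Of 2 settings chosen after seeing the data, all 12 libraries in the fit gave 1 call. The other, leaving out genes with a fold of 1 in either of the authors' tables, gave 3. The 3 called list members (CHAC1, MT2A, MT1X) became 0 without the filter, with the replicate block and with 12 libraries, and 0 to 1 without 1 pool. IL1RAPL1 kept its call under 16 of 17 alternatives (adjusted p 6.53e-05 to 0.321), AC022296.2 under 12 of 16 (2.72e-06 to 0.154), MT2A under 11 of 18 (0.00481 to 0.655), MT1X under 9 of 18 (0.0131 to 0.267) and CHAC1 under 8 of 18 (0.0112 to 0.655). FOXK2 against SCR pools gave 105 calls without the filter, 79 with the replicate block, 128 without the trend and 12 to 86 without 1 pool, and FOXK1 against SCR pools 186, 115, 179 and 19 to 230. Of the named genes that were not called, HBG2 lay at -0.16 to 0.01 (log2, FOXK2 minus FOXK1) without 1 FOXK2 pool, MT1A at -0.84 to 0.24 without 1 FOXK2 pool, and MTF1 at -0.04 to 0.29 without 1 FOXK1 pool, so each changed sign. Adding 0.1 or 5 FPKM, both other scalings and robust moderation gave 4 or 5 calls in FOXK2 against FOXK1. A fit of the 4 FOXK pools alone, without the SCR pools, gave 5 calls, 0 higher and 5 lower. Of these, 4 were among the 5 called genes of the main fit. CHAC1 was not called there (limma adjusted p = 0.0747), so the only higher call depended on the SCR pools being in the fit. Over 46 named genes and 820 values under alternatives, 785 kept their direction and their side of the threshold. Most of these genes were not called to begin with, so keeping their side says little. The 31 values that lost a call all belong to the 5 called genes. The causes were not tested. The count test was not run, since the values are not reads. With depth unknown, low genes have no counting error here.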
